A study of Mus musculus with 8 samples.

Results

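The 10 genes described here are the ligands and receptors of vascular endothelial growth factor (VEGF) and angiopoietin signalling that were listed by symbol, and each symbol matched 1 of the 37979 genes in the table. They comprise the VEGF family ligands Vegfa, Vegfb, Vegfc, Figf (the gene of VEGF-D) and Pgf, the angiopoietins Angpt1 and Angpt2, the VEGF receptor Flt1, and the co-receptors Nrp1 and Nrp2. RNA was measured by RNAseq in cells that flow cytometry took from the hindlimb muscles of Ai14+/−;SM22α-Cre+ mice of both sexes aged 3 to 4 months. There were 4 libraries of pericytes, defined as PDGFRβ+ and tdTomato−, and 4 of smooth muscle cells (SMCs), defined as PDGFRβ+ and tdTomato+. All mice carried the Ai14 reporter and the Cre transgene, and the SM22α promoter drove the Cre that switched on the tdTomato label, so the label marks any cell in which, or in whose ancestors, that promoter had been active. CD31 and CD45 were stained in the same colour, and cells positive for it were excluded from both sorts, although a legend in the study writes CD31+ for both. Each library pooled cells from several sorts, about 60000 in all, and all libraries carry the same batch label.

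VEGF ligands are secreted proteins that bind receptor tyrosine kinases on endothelial cells and set the growth, permeability and survival of blood and lymphatic vessels. VEGF-A acts mainly through the receptor Kdr, placental growth factor and VEGF-B bind Flt1, and VEGF-C and VEGF-D bind Flt4 and serve lymphatic growth. Angiopoietins act on the receptor Tek, where Angpt1, classically made by mural cells, activates the receptor and steadies the vessel wall, and Angpt2 can oppose it.

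The unit throughout is FPKM, the sequenced fragments of a gene scaled to the length of its transcript and to the mapped fragments of the library, so levels of different genes can be set side by side. Summed over all genes, FPKM came to 1190435 in pericyte replicate 2 and to 656405 to 782014 in the other libraries. Levels and marker sums are given as deposited, without scaling to a common total. All 10 genes were above 0 FPKM in every library. In genes with 1 annotated transcript the lowest FPKM values fell on whole multiples of what 1 fragment is worth, which put the libraries at an estimated 19300000 to 23500000 fragments. At the length of the longest annotated transcript, Figf rested on about 5 to 16 fragments in a pericyte library and 25 to 198 in an SMC library, and Vegfb on 13 to 103 fragments in any library. The other 8 genes rested on about 39 (Angpt1 in pericyte replicate 2) to 15974 fragments (Flt1 in SMC replicate 4). These numbers of fragments are estimates and are smaller where a shorter transcript was expressed.

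The sorted groups held transcripts of other cell types. The 14 endothelial markers summed to between 154.9 and 259 FPKM in pericytes and between 747 and 1909 FPKM in SMCs, and 13 of them were higher in SMCs at an adjusted p below 0.05 (limma on log2(FPKM + 1), Benjamini-Hochberg over 27414 genes). Of these 13, the alternatives were read for Pecam1 and Cdh5 only. The call on Pecam1 (adjusted p = 0.00873) was kept in all 16 alternatives. The call on Cdh5 (adjusted p = 0.0213) was lost in 4 of the 16, among them without pericyte replicate 1 (0.0567), pericyte replicate 3 (0.0588) or SMC replicate 3 (0.0583). Eng (0.0369), Robo4 (0.0357) and Mmrn2 (0.0277) lay nearer the threshold and were not followed over the alternatives. The 8 fibro-adipogenic markers summed to between 417 and 864 FPKM in pericytes and between 4163 and 5634 FPKM in SMCs, and all 8 were higher in SMCs. The 6 T cell and 5 B cell markers were all higher in pericytes, where the T cell markers summed to between 1496 and 2356 FPKM, against 19.1 to 33.1 FPKM in SMCs. None of these markers was at 0 throughout either group. The 10 smooth muscle markers summed to between 610 and 1915 FPKM in pericytes and between 1796 and 5841 FPKM in SMCs, and 0 of 10 differed at an adjusted p below 0.05 by limma (3 at an unadjusted p below 0.05). Of these, Acta2 (adjusted p = 0.0979, and 0.0236 to 0.210 over the 16 alternatives) passed as higher in SMCs in 3 alternatives, and Tagln, the gene of SM22α (0.110, and 0.0366 to 0.235), in 2. Of the 10 pericyte markers, Rgs5 and Ndufa4l2 were higher in SMCs and none was higher in pericytes. At an unadjusted p below 0.05 by limma, 6 of the 10 favoured SMCs and 0 favoured pericytes. The sorting marker Pdgfrb was among the 6, with means of 9.70 FPKM in pericytes and 47.4 FPKM in SMCs. The call on Rgs5 (adjusted p = 0.0240) was lost in 4 of the 16 alternatives, among them without pericyte replicate 1 (0.0538), SMC replicate 3 (0.0656) or SMC replicate 4 (0.0529). In bulk samples, fewer cells of a type and less RNA per cell cannot be told apart.

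Of the 10 genes, 6 were higher in SMCs and none was higher in pericytes. The 6 were Vegfc, Pgf, Angpt1, Angpt2, Flt1 and Nrp1, with mean levels in SMCs between 4.24 and 10.2 times those in pericytes. By comparison, 21.8% of the 27414 genes tested passed, 11.2% as higher in SMCs and 10.6% as higher in pericytes. Among the 13612 genes whose mean reached 1 FPKM, 19.5% passed as higher in SMCs. When every library was scaled to the same total, 3695 genes passed as higher in SMCs and 2094 as higher in pericytes, against 3060 and 2917 as deposited. At an unadjusted p below 0.05 by limma, 7 of the 10 genes favoured SMCs and 0 favoured pericytes. The median difference over the 10 genes was 1.70 on the log2(FPKM + 1) scale, SMCs minus pericytes, against -0.02 over all genes tested. The study's rule, a log2 difference above 2 together with an adjusted p below 0.05, was applied to the present fit. By it Vegfc, Flt1 and Nrp1 were enriched in SMCs, as were 2.66% of all genes tested. None of the 10 was enriched in pericytes, as were 3.24% of all genes tested. These shares are 728 and 888 genes, more than the paper lists in each direction, so they are not the study's own calls. The count among the 10 genes depends on the FPKM added before taking logs. With 0.1 FPKM added in place of 1, Pgf, Angpt1 and Angpt2 passed the rule as well, 6 of the 10 in all, against 5.18% of all genes tested.

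**Figure D1:**
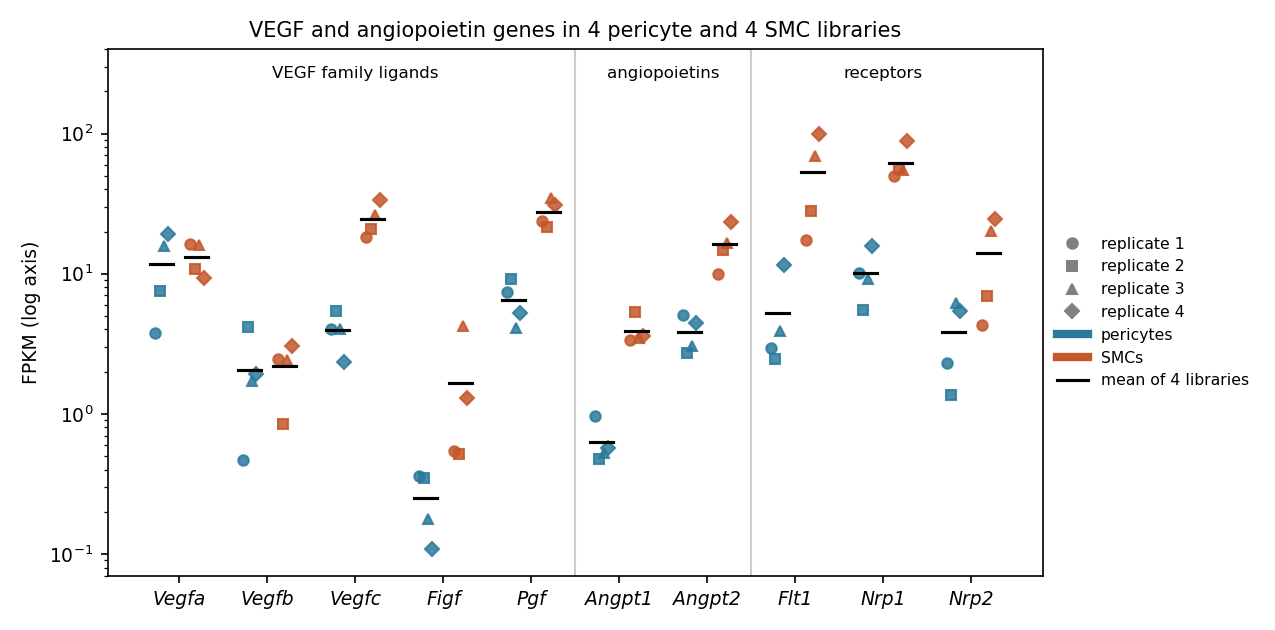
FPKM on a log axis of the 10 genes in each of 4 pericyte and 4 SMC libraries, with a marker shape for each replicate number and a bar at the mean of 4. Every SMC library lies above every pericyte library for 7 genes (Vegfc, Figf, Pgf, Angpt1, Angpt2, Flt1 and Nrp1), and the groups overlap for Vegfa, Vegfb and Nrp2.

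Vegfa, the main ligand of blood vessel growth, was not separated between the groups. Its level was 3.79, 7.57, 15.9 and 19.4 FPKM in pericyte replicates 1 to 4, and 16.3, 10.8, 16.1 and 9.33 FPKM in SMC replicates 1 to 4. Pericyte replicate 4 was the highest of the 8 libraries, replicate 3 lay among the SMC libraries and replicates 1 and 2 lay below all of them, so the groups overlapped. The means were 11.7 ± 7.21 FPKM in pericytes and 13.1 ± 3.58 FPKM in SMCs (SD, n = 4). The log2 difference was 0.34, with a 95% interval from -0.76 to 1.44 (limma, adjusted p = 0.696), so a difference of up to 1.44 in favour of SMCs is within the precision of these libraries. Without pericyte replicate 1 the difference was -0.06.

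Vegfb, a Flt1 ligand linked to the heart and to fat metabolism, was low in both groups. It had 0.471, 4.15, 1.73 and 1.94 FPKM in pericyte replicates 1 to 4, and 2.46, 0.842, 2.44 and 3.06 FPKM in SMC replicates 1 to 4. The groups overlapped throughout, with the highest and the lowest of the 8 values as deposited both in pericytes. The highest was pericyte replicate 2, the library with the largest summed FPKM. The log2 difference was 0.14, with a 95% interval from -0.83 to 1.10 (limma, adjusted p = 0.860), and it was -0.17 without pericyte replicate 1. With every library scaled to the same total it was 0.32 (limma adjusted p = 0.614).

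Vegfc, the main ligand of lymphatic vessel growth, was higher in every SMC library. It had 4.05, 5.38, 4.02 and 2.35 FPKM in pericyte replicates 1 to 4, against 18.4, 20.8, 26.1 and 33.5 FPKM in SMC replicates 1 to 4. The lowest SMC library was thus above the highest pericyte library, as was the case for 12.5% of all genes tested. The means were 3.95 ± 1.24 FPKM in pericytes and 24.7 ± 6.71 FPKM in SMCs (SD, n = 4), a ratio of 6.25. The log2 difference was 2.38 (SE 0.25, limma adjusted p = 6.19e-04).

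Figf, the gene of the second lymphatic ligand VEGF-D, had the lowest mean of the 10 genes in both groups, although in SMC replicate 3 it exceeded Vegfb and Angpt1. It had 0.361, 0.351, 0.178 and 0.109 FPKM in pericyte replicates 1 to 4, and 0.542, 0.520, 4.26 and 1.29 FPKM in SMC replicates 1 to 4. All SMC libraries lay above all pericyte libraries, and SMC replicate 3 stood above the rest. The log2 difference of 0.89 did not pass (SE 0.39, limma adjusted p = 0.171), while the two-sided exact permutation test over libraries gave p = 0.0286, the smallest value that 4 against 4 allows. The difference was 0.49 without SMC replicate 3, and 1.91 with 0.1 FPKM added in place of 1, and it passed in neither (adjusted p = 0.114 and 0.0649, and 0.0649 to 0.293 over the 15 alternatives that could be run).

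Pgf, placental growth factor, which binds Flt1 and Nrp1, was the VEGF family ligand with the highest mean in SMCs. Its level was 7.46, 9.10, 4.12 and 5.22 FPKM in pericyte replicates 1 to 4, and 23.7, 21.7, 34.6 and 30.7 FPKM in SMC replicates 1 to 4. Both groups were narrow, with a highest library 2.21 times the lowest in pericytes and 1.60 times in SMCs, and they did not overlap. The means differed 4.27 times, and the log2 difference was 1.96 (SE 0.25, limma adjusted p = 0.00144).

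Angpt1, the activating ligand of Tek, was under 1 FPKM in every pericyte library. It had 0.959, 0.473, 0.527 and 0.572 FPKM in pericyte replicates 1 to 4, and 3.34, 5.31, 3.49 and 3.59 FPKM in SMC replicates 1 to 4. The groups did not overlap, and SMC replicate 2 was the highest library. The means were 0.633 ± 0.221 FPKM and 3.93 ± 0.924 FPKM (SD, n = 4), a ratio of 6.22, with a log2 difference of 1.59 (SE 0.15, limma adjusted p = 3.88e-04). On the log2(FPKM + 1) scale the change of such a low gene is understated, and with 0.1 FPKM added in place of 1 the difference was 2.48. The Angpt1 exons share 283 bases with Gm17473, a gene on the opposite strand that was at 0.0394 to 0.519 FPKM, and strand use in the counting is not given in the sources used here.

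Angpt2, the context-dependent Tek ligand best known from sprouting endothelium, was also higher in every SMC library. It had 5.11, 2.72, 3.03 and 4.43 FPKM in pericyte replicates 1 to 4, and 9.96, 14.7, 16.7 and 23.6 FPKM in SMC replicates 1 to 4. The ranges did not overlap, and SMC replicate 1 came closest to the pericyte libraries. The means differed 4.24 times, and the log2 difference was 1.81 (SE 0.27, limma adjusted p = 0.00319). Mcph1 runs across Angpt2 on the opposite strand with 0 shared exon bases.

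Flt1 (VEGFR1), a receptor of VEGF-A, VEGF-B and placental growth factor that also has a soluble form which holds ligand back, showed the largest difference of the 10 genes. It had 2.96, 2.46, 3.87 and 11.5 FPKM in pericyte replicates 1 to 4, and 17.5, 27.9, 69.1 and 98.8 FPKM in SMC replicates 1 to 4. The groups did not overlap, although both were wide, and replicate 4 was the highest library of each group. The means were 5.21 ± 4.26 FPKM and 53.3 ± 37.6 FPKM (SD, n = 4), a ratio of 10.2, with a log2 difference of 3.03 (SE 0.64, limma adjusted p = 0.0138). Pericyte replicate 4 lifted the pericyte mean above the median of 3.42 FPKM, so the ratio depends on that library. With 1 library left out in turn, the log2 difference was 2.64 to 3.45. The values are per gene, so the membrane and soluble forms are not separated.

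Nrp1 and Nrp2 encode neuropilins, co-receptors that bind VEGF ligands beside the receptor kinases and also bind class 3 semaphorins. Nrp1 had 10.1, 5.53, 9.13 and 15.7 FPKM in pericyte replicates 1 to 4, and 49.8, 55.6, 55.1 and 87.9 FPKM in SMC replicates 1 to 4. It was the highest of the 10 genes in SMCs by its mean, and the groups did not overlap. The means differed 6.13 times, and the log2 difference was 2.55 (SE 0.31, limma adjusted p = 0.00117). Nrp2 had 2.32, 1.35, 6.17 and 5.40 FPKM in pericyte replicates 1 to 4, and 4.30, 6.98, 20.3 and 24.5 FPKM in SMC replicates 1 to 4. In Nrp2, replicates 3 and 4 were above replicates 1 and 2 in both groups, and SMC replicate 1 fell within the pericyte range. The log2 difference of Nrp2 was 1.501, with a 95% interval from 0.07 to 2.94 before adjustment, and did not pass (limma, adjusted p = 0.139). It passed when only genes at 1 FPKM or more in at least 4 libraries were tested (limma adjusted p = 0.0469). It also passed with the replicate number as a block (0.0207), and its adjusted p ran from 0.0207 to 0.293 over the 16 alternatives.

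**Figure D2:**
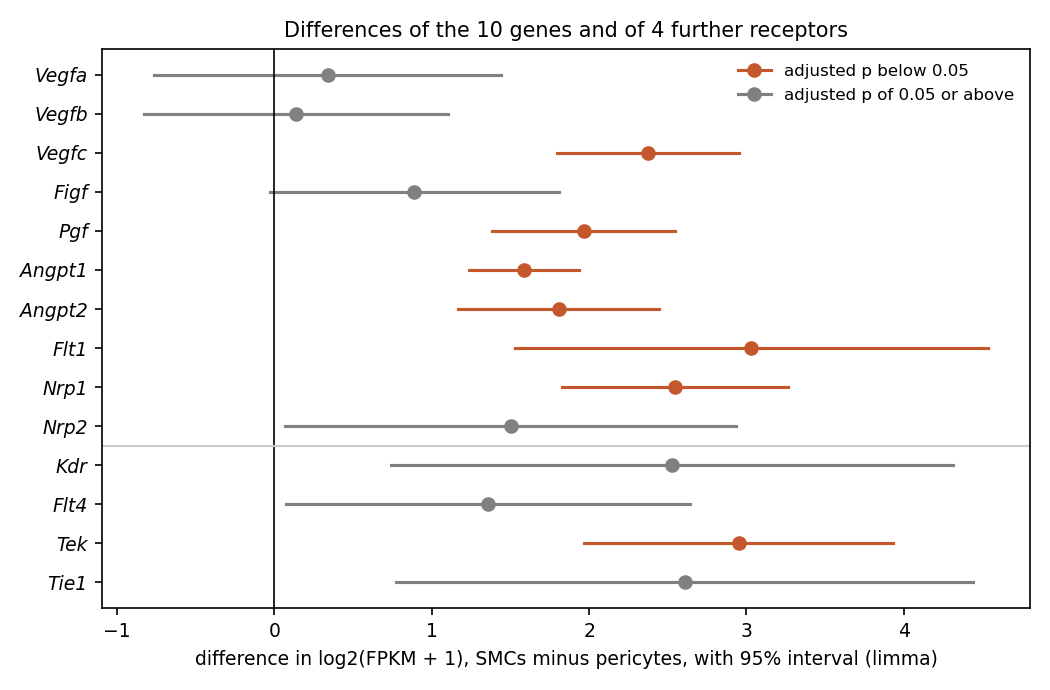
Difference in log2(FPKM + 1), SMCs minus pericytes, of the 10 genes and of the receptors Kdr, Flt4, Tek and Tie1, with unadjusted 95% intervals from limma, where a colour marks an adjusted p below 0.05. The intervals of Vegfa, Vegfb and Figf include 0, and Flt1 has the largest difference, 3.03.

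The levels took a different order in each group. In pericytes Vegfa (11.7 FPKM) and Nrp1 (10.1 FPKM) had the highest means, followed by Pgf, Flt1, Vegfc, Angpt2, Nrp2, Vegfb, Angpt1 and Figf. The range of each gene over the 4 pericyte libraries overlapped that of the next, except between Angpt1 and Figf. In SMCs Nrp1 (62.1 FPKM) and Flt1 (53.3 FPKM) led, followed by Pgf, Vegfc, Angpt2, Nrp2, Vegfa, Angpt1, Vegfb and Figf. Here Vegfa was above Angpt1, and Angpt1 above Vegfb, in every library without overlap, and the other neighbours overlapped. Vegfa thus ranked first of 10 in pericytes and seventh in SMCs.

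Ratios within a library showed how ligands and receptors stood to each other, given as differences in log2(FPKM + 1) and without a test. Vegfa against Flt1 was 0.27 to 1.79 in pericytes and -3.27 to -0.10 in SMCs, so Vegfa exceeded Flt1 in each pericyte library and fell below it in each SMC library. Angpt2 exceeded Angpt1 in all 8 libraries, by 1.34 to 1.79 in pericytes and 1.31 to 2.42 in SMCs, and the ranges overlapped. Adding 1 FPKM compresses this ratio, since Angpt1 was under 1 FPKM in pericytes. From FPKM with nothing added, chosen after the data were seen, Angpt2 was 5.33 to 7.75 times Angpt1 in pericytes and 2.77 to 6.57 times in SMCs, which reverses the order of the group means, and the ranges again overlapped. Nrp1 exceeded Nrp2 by 0.50 to 1.74 in pericytes and 1.398 to 3.26 in SMCs. Against Pecam1, the endothelial gene that encodes CD31, Flt1 stood at -3.94 to -2.10 in pericytes and -2.57 to -1.60 in SMCs, and Angpt2 at -3.50 to -2.80 and -3.62 to -3.23. Both ratios to Pecam1 overlapped between the groups, as did those of Angpt1, Vegfc, Pgf, Nrp1, Nrp2 and Kdr, which were added after the data were seen. That of Tek, added with them, did not overlap, at -3.42 to -2.58 in pericytes and -2.33 to -1.84 in SMCs. Pecam1 itself had 59.7, 25.0, 44.5 and 52.7 FPKM in pericyte replicates 1 to 4, and 101.8, 170.3, 215.9 and 301.1 FPKM in SMC replicates 1 to 4. The part of endothelial and fibro-adipogenic transcripts in the differences of the 6 genes was not tested.

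**Figure D3:**
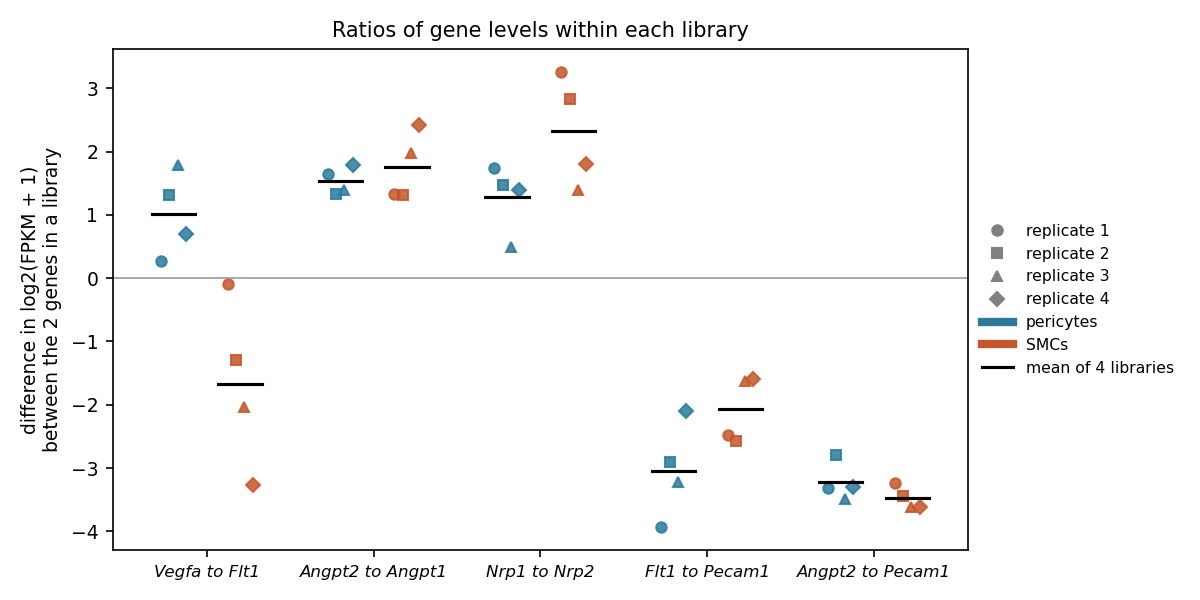
Difference in log2(FPKM + 1) between the genes of each pair in each library, with a marker shape for each replicate number and a bar at the mean of 4. Vegfa against Flt1 lies above 0 in the 4 pericyte libraries and below 0 in the 4 SMC libraries, while both ratios to Pecam1 overlap between the groups.

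The genes differed in how they varied among the libraries of a group. The mean of SMC replicates 3 and 4 was 3.69 times that of SMC replicates 1 and 2 for Flt1, 3.97 times for Nrp2 and 5.22 times for Figf. It was 1.66 times for Vegfb, 1.63 times for Angpt2, 1.52 times for Vegfc, 1.44 times for Pgf and 1.36 times for Nrp1, and 0.935 times for Vegfa and 0.818 times for Angpt1. SMC replicates 3 and 4 were the highest SMC libraries for Flt1, Nrp2, Figf, Vegfc, Pgf and Angpt2. In pericytes the same ratio of replicates 3 and 4 to replicates 1 and 2 was 3.15 for Nrp2, 3.10 for Vegfa, 2.84 for Flt1 and 1.59 for Nrp1, whereas it was 0.953 for Angpt2, 0.793 for Vegfb, 0.767 for Angpt1, 0.676 for Vegfc, 0.564 for Pgf and 0.403 for Figf. By these means Flt1, Nrp2 and Nrp1 were higher in replicates 3 and 4 of both groups, Angpt1 was lower in both, and the other 6 genes went in opposite directions in the groups. For Angpt1 only pericyte replicate 1 (0.959 FPKM) and SMC replicate 2 (5.31 FPKM) lay above replicates 3 and 4 of their group. For Nrp1, replicate 3 lay below replicate 1 in pericytes and below replicate 2 in SMCs. Within replicates 1 and 2, and within replicates 3 and 4, both SMC libraries lay above both pericyte libraries for Nrp2 and for the receptor Kdr. Some marker lists were also higher in SMC replicates 3 and 4. Over SMC replicates 1 to 4 the endothelial markers summed to 747, 865, 1735 and 1909 FPKM, and the pericyte markers to 140.1, 143.8, 345 and 469 FPKM. The smooth muscle markers summed to 1796, 2071, 3506 and 5841 FPKM, and the Schwann cell markers to 111.7, 95.6, 326 and 316.5 FPKM. The fibro-adipogenic markers, at 5634, 4645, 4163 and 5476 FPKM, did not divide the libraries in this way. Other lists were lower in SMC replicates 3 and 4, namely the platelet (130, 109.5, 47.5 and 52.5 FPKM), satellite cell (99, 61.2, 21.9 and 32.0 FPKM) and B cell markers (29.6, 30.1, 8.84 and 11.7 FPKM). The lymphatic endothelial sum (125.7, 101.7, 93.7 and 88.8 FPKM) was lower there through Pdpn alone (100.3, 73.8, 51.8 and 49.5 FPKM). Prox1 (2.62, 3.51, 4.07 and 6.71 FPKM) and Mmrn1 (4.78, 11.5, 24 and 14.1 FPKM) were higher there, and Lyve1 and Reln did not divide the SMC libraries. In pericyte replicates 1 to 4 the Schwann cell markers summed to 144.4, 95.2, 645 and 525 FPKM and the pericyte markers to 55.0, 76.5, 87.2 and 134.1 FPKM, so these lists too were higher in replicates 3 and 4. Among the lists lower there were the B cell (1300, 1966, 859 and 760.6 FPKM), platelet (13.79, 37.07, 13.13 and 4.84 FPKM), satellite cell (38.75, 51.2, 6.18 and 34.63 FPKM) and lymphatic endothelial markers (41.08, 35.06, 22.01 and 25.05 FPKM). Within the lymphatic endothelial list, Pdpn and Lyve1 were lower in pericyte replicates 3 and 4, and Reln was higher there. Prox1 and Mmrn1 did not divide the pericyte libraries, so the lower sum does not hold for the list as a whole. The endothelial markers, at 181.8, 180, 154.9 and 259.3 FPKM, did not divide the pericyte libraries in this way. The part of any of these cell types in the spread of the 10 genes was not tested. These pairs of libraries were set side by side after the values were seen.

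**Figure D4:**
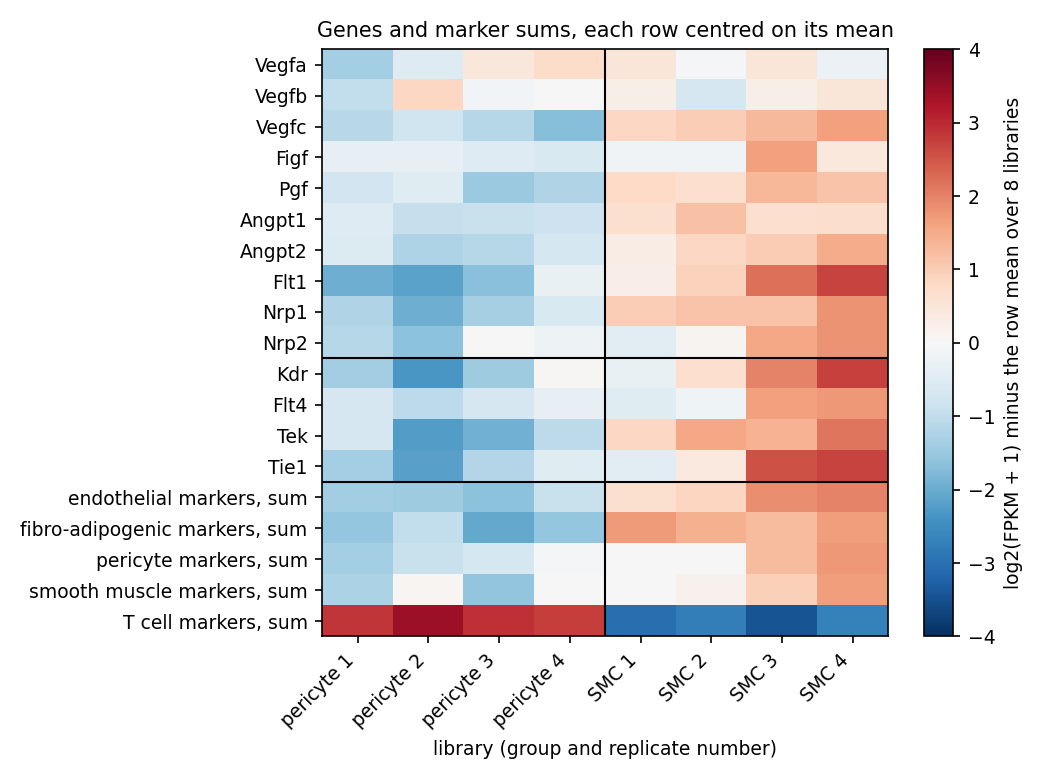
Log2(FPKM + 1) of each gene, or of the summed FPKM of a marker list, minus the mean of its row over 8 libraries, for the 10 genes, 4 further receptors and 5 marker lists. Flt1, Kdr and Tie1 are highest in SMC replicates 3 and 4, as is the endothelial sum, and the T cell sum is high in the 4 pericyte libraries.

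The 4 receptors that complete the pathway, Kdr (VEGFR2), Flt4 (VEGFR3), Tek and Tie1, are largely endothelial genes. Tek, the angiopoietin receptor, had 9.15, 2.45, 3.27 and 6.90 FPKM in pericyte replicates 1 to 4, and 27.8, 46.2, 42.1 and 70.9 FPKM in SMC replicates 1 to 4. The groups did not overlap, and the log2 difference was 2.95 (SE 0.42, limma adjusted p = 0.00244). Kdr, the main VEGF-A receptor, had 4.54, 1.91, 4.42 and 14.0 FPKM in pericyte replicates 1 to 4, and 10.7, 21.9, 55.7 and 94.7 FPKM in SMC replicates 1 to 4. SMC replicate 1 lay below pericyte replicate 4, and the log2 difference of 2.53 did not pass (SE 0.76, limma adjusted p = 0.0538). It passed in 7 of the 16 alternatives, among them without SMC replicate 1 (adjusted p = 0.0271) and without pericyte replicate 4 (adjusted p = 0.0397), and its adjusted p ran from 0.0117 to 0.131. Tie1, a partner of Tek, had a log2 difference of 2.61 that did not pass (limma adjusted p = 0.0531), although every SMC library lay above every pericyte library. Of the libraries left out in turn, it passed without SMC replicate 1 alone (adjusted p = 0.0213), and it passed in 6 of the 16 alternatives in all, with an adjusted p from 0.0114 to 0.124. Flt4, the VEGF-C receptor, was at 0.323 to 1.15 FPKM in pericytes and 0.943 to 7.96 FPKM in SMCs, with a log2 difference of 1.36 (limma adjusted p = 0.136, and 0.0476 to 0.284 over the 16 alternatives).

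Of the 48 other genes of the pathway, the 4 receptors included, 13 passed by limma as higher in SMCs and 3 as higher in pericytes. That is 27.1% and 6.25%, against 11.2% and 10.6% of all genes tested. Among the 13612 genes whose mean reached 1 FPKM, 19.5% passed as higher in SMCs. The median log2 difference of the 48 genes was 0.50. Angpt4, a further Tek ligand, was higher in SMCs by 1.94 on the log2 scale (adjusted p = 0.0175). Of 5 modulators of ligands and receptors, 4 were higher in SMCs. They were Ccbe1 and Adamts3, which process VEGF-C (log2 difference 1.92 and 1.54, adjusted p = 5.02e-04 and 0.00206), Svep1, an extracellular matrix protein of lymphatic vessels (1.87, adjusted p = 0.0108), and Ptprb, the phosphatase that acts on Tek (2.17, adjusted p = 0.0397). The call on Ptprb was lost when any library but SMC replicate 1 was left out, and its adjusted p ran from 0.00854 to 0.101 over the 16 alternatives.

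Oxygen-sensing genes that act upstream of Vegfa, such as Hif1a and Vhl, gave 0 calls in 7 by limma (at an unadjusted p below 0.05, 1 favoured SMCs and 2 favoured pericytes). Of 13 signal transduction genes, the focal adhesion kinase gene Ptk2 was higher in SMCs (1.41, adjusted p = 0.00312), and 3 were higher in pericytes. Those were Sh2d2a, an adaptor also used by T cells (-5.14, adjusted p = 8.52e-06), Dok2, an adaptor also used by blood cells (-2.99, adjusted p = 2.44e-04), and Grb2 (-1.41, adjusted p = 0.00804). The T cell marker Cd3e moved in the same direction, with 119 to 166 FPKM in pericytes and 0.857 to 2.86 FPKM in SMCs, and the part of lymphocyte transcripts in these 3 genes was not tested. Without pericyte replicate 4, 5 pathway genes were higher in pericytes.

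Of 6 genes that VEGF induces in endothelium, 2 were higher in SMCs. Esm1, a marker of sprouting endothelial tip cells, had 0.519 to 1.10 FPKM in pericytes and 6.29 to 10.02 FPKM in SMCs (log2 difference 2.29, limma adjusted p = 9.31e-05), and Rcan1, a calcineurin inhibitor, had 18.2 to 41.9 and 109 to 387 FPKM (2.80, adjusted p = 0.00825). Of 12 semaphorins and plexins that work with neuropilins, 4 were higher in SMCs. Sema3c had a log2 difference of 2.84 (adjusted p = 3.75e-04) and Sema3d one of 2.03 (adjusted p = 6.88e-04). The differences of Plxna1 (0.48, adjusted p = 0.0345) and Plxna4 (0.25, adjusted p = 0.0273) were smaller on this scale. Both genes were low, with means in pericytes and SMCs of 0.445 and 1.035 FPKM for Plxna1 and 0.147 and 0.363 FPKM for Plxna4. With 0.1 FPKM added in place of 1 their differences were 1.03 and 0.892. Each call was lost with 5 of the 8 libraries left out in turn, at adjusted p values of up to 0.0907 and 0.0794. Ptprb, Svep1, Grb2, Plxna1 and Plxna4 were named after their values were seen.

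The sequence just upstream of the start of transcription is shown for the 3 genes that passed the study's rule with 1 FPKM added and for Vegfa, which was not called. They show where the searched letters stand. The sequences are from RefSeq (build GRCm38.p6, not the build of the FPKM), cover 250 bases and end at the base before the start. Starts were found for 8 of the 10 genes, with Angpt1 and Angpt2 not among them. Capitals mark a match to TGACGTCA, the cyclic AMP response element.
Flt1 (chr5:147726012-147726261, strand -): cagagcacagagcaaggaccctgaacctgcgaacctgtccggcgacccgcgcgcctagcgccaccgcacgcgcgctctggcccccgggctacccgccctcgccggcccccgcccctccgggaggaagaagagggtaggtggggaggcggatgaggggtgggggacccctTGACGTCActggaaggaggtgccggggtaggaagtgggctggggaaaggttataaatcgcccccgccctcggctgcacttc
Nrp1 (chr8:128358823-128359072, strand +): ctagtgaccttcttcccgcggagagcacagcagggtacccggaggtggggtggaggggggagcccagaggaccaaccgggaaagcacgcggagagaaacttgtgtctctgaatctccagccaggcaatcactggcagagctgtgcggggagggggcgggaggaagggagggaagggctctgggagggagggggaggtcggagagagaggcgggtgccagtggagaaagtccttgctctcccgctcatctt
Vegfc (chr8:54077282-54077531, strand +): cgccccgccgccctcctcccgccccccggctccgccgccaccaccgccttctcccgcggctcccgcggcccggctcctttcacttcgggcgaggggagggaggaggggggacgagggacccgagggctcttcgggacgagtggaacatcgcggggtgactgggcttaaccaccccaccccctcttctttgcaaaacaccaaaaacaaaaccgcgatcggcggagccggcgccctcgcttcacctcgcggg
Vegfa (chr17:46032378-46032627, strand -): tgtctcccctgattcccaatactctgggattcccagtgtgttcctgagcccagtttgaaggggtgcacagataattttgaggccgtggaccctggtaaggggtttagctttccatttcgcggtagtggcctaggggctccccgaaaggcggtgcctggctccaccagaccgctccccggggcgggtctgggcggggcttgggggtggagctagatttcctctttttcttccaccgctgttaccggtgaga
On either strand, 3 motifs, chosen in part after the windows were read, were searched in all 10 windows of these 8 genes. TGACGTCA occurred once, 81 bases upstream of the Flt1 start, and 1.55% of the 32851 RefSeq windows of this length hold it. ACGTG, a form of the core of the hypoxia response element, occurred only in the window of a second, internal start of Vegfa. It is in 16.6% of all windows, and other forms of that core were not searched. CCGGAA, a form of the ETS factor motif, had no match in the 10 windows and is in 12% of all windows. Other forms of the ETS motif were not searched. ACGTG and TGACGTCA share the letters ACGT.

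In NCBI Build 37 (NCBIM37), Flt1 lies on chr5:148373180-148537587 on the minus strand, Nrp1 on chr8:130882973-131029362 and Nrp2 on chr1:62749859-62865269, both on the plus strand. Vegfc (chr8:55162886-55271808, plus strand) and Angpt2 (chr8:18690263-18741562, minus strand) lie on the same chromosome as Nrp1, and Angpt1 lies on chr15:42256273-42508523 on the minus strand. Vegfa (chr17:46153942-46169326), Vegfb (chr19:7056963-7062141) and Pgf (chr12:86507589-86518246) are on the minus strand, and Figf (chrX:160811310-160840582) is on the plus strand. All are protein-coding genes in the annotation, with up to 14 transcripts for Vegfa.

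The genes whose levels followed each of the 10 most closely over the 8 libraries were ranked by Pearson's r of log2(FPKM + 1) among 12946 genes. The 8 points share their libraries and fall into the 2 groups compared, so r is given as a description. Spry4, a feedback inhibitor of receptor tyrosine kinase signalling, was the closest to Flt1 (r = 0.997), followed by Tpm1 (0.995) and St5 (0.994). Il33, a cytokine gene, was the closest to Nrp1 (0.997), Tbx3 to Nrp2 (0.997), Prex2 to Angpt2 (0.995) and Kifap3 to Angpt1 (0.997). Vegfc was followed most closely by I830012O16Rik (0.993), and Pgf by Gm11517 (0.993) and the haem oxygenase gene Hmox1 (0.993). For Vegfa and Vegfb, which did not separate the groups, the closest were 2510003E04Rik (0.988) and Rap2b (0.943).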

How the data were processed

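RNA from 4 pericyte and 4 SMC libraries was sequenced as 2 groups, with replicate numbers from the sample names. The authors checked reads with FastQC, aligned them by TopHat and Bowtie2 to NCBI Build 37 of the mouse with an Ensembl annotation, and deposited FPKM per gene and library, which are normalized to transcript length and mapped fragments and are not counts. The program that computed FPKM and tool versions are not given in the sources used here. Gene positions were read from the GENCODE annotation of that build, where 37195 of the 37979 identifiers were found.

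Depth was estimated from genes with 1 transcript longer than 1500 bases, where 90.5% to 93.7% of values under 3.3 fragments lay within 0.15 of a whole number. Values were taken as log2(FPKM + 1) and fitted with limma 3.58.1 in R 4.3.3 (lmFit, eBayes) over the 27414 genes above 0 FPKM in at least 1 library, with Benjamini-Hochberg adjustment over all of them. A gene was called at an adjusted p below 0.05, and the study's rule adds a log2 difference above 2. For single genes, all 70 ways of dividing the libraries 4 against 4 gave an exact two-sided permutation test (smallest p 0.0286). The fit was also run on simulated log2 values with the genes' own means and spreads. Of 200 genes changed by 1, 2 or 4 on the log2 scale, 1.5%, 59.0% and 94.0% were called. False calls numbered 0, 6 and 9 of 27414 genes. A gene that was not called may therefore still differ, above all at a log2 difference near 1. The p-values measure the spread between libraries of combined sorts.

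The genes, the gene lists and the tests were chosen with earlier results of these data known. Named were all 10 genes, the 4 further receptors, in each pathway role the 2 called genes with the lowest adjusted p in each direction, the 3 genes most like each of the 10 (of which some are given), and the marker lists. Lists for lymphatic endothelium (2 of 5 higher in SMCs), myeloid cells (1 of 6 in each direction, where the call of Emr1 as higher in SMCs, at an adjusted p of 0.0437, was lost in 9 of 16 alternatives), platelets (2 of 4 higher in SMCs), muscle fibers, satellite cells and Schwann cells (no calls) and Ptprc, which encodes CD45 (higher in pericytes), were also measured. The fit was repeated with 0.1 FPKM added in place of 1, on genes that reached 1 FPKM in 4 or more libraries, on all listed genes, with quantile, common-sum and median-ratio scaling, with the replicate number as a block, with an intensity trend, and without each library in turn. Figures and permutation tests used Python 3.11.15, scipy 1.17.1 and matplotlib 3.10.9.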

Additional observations from a re-analysis of the deposited data

Results flagged for a closer look

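Angpt1 in SMC replicate 2, at 5.31 FPKM, stood apart from the other 3 SMC libraries (3.34 to 3.59 FPKM), with a gap to the next library of 0.852 of the group's range on the log2(FPKM + 1) scale, past the critical value of Dixon's test at 95%. It was the only one of 20 groups of 4 libraries to do so, and chance gives about 1 in 20.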

How the results depend on the processing

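Vegfc, Pgf, Angpt1, Angpt2, Flt1 and Nrp1 remained higher in SMCs at an adjusted p below 0.05 under all 16 alternatives, with the highest adjusted p at 0.0406 for Flt1, and none of the 10 genes was higher in pericytes under any of them. Nrp2 was called in addition with the filter at 1 FPKM (adjusted p = 0.0469), where Figf could not be tested. Leaving out 1 library turned the direction of Vegfa (-0.056 to 0.64) and Vegfb (-0.17 to 0.43), which were not called, each without pericyte replicate 1. The count of the 10 genes past the study's rule was 3 in the main fit, 6 with 0.1 FPKM added and 5 with common-sum scaling. It was 3 to 5 over the libraries left out, highest without SMC replicate 1. The count of pathway genes higher in pericytes ranged from 3 to 5 over the libraries left out, and the cause was not tested. Deviations from the group mean, compared across 13612 genes between a pericyte library and the SMC library of its number, correlated at 0.0794 to 0.474. The lowest was under 0.1, so the numbers were not taken to pair the libraries. Correlations between groups were positive within replicates 1 and 2 and within replicates 3 and 4 (0.0794 to 0.538) and negative across them (-0.451 to -0.102), a split that both groups share and that no label names. With the replicate block, 7 of the 10 genes were higher in SMCs, Nrp2 now among them (adjusted p = 0.0207), and 20 and 5 pathway genes were higher in SMCs and pericytes, against 13 and 3. The block also brought Kdr (adjusted p = 0.0219) and Tie1 (0.0317) and the markers Erg (0.0345), Pdgfrb (0.00601) and Kcnj8 (0.00142) past the threshold as higher in SMCs, and took Plxna1 (0.0675) and Plxna4 (0.0742) out. Without the block, Kdr and Tie1 also passed with 0.1 FPKM added in place of 1, the filter at 1 FPKM, quantile scaling and the intensity trend. Figf and Vegfb rest on few fragments, which limits what their differences can show.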
